A study of Mus musculus with 9 samples.

Results

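The synaptic vesicle and release machinery was taken as the genes whose symbol belonged to the synaptotagmin, synapsin, Vamp, Snap, syntaxin, syntaxin-binding, Rab3, Sv2, complexin, Unc13 or Rims families, together with Syp, Bsn, Pclo and Nsf. Of 27497 genes in the deposited table, 91 matched by symbol, and 80 of these averaged 1 RPKM or more over all 9 libraries and are the members described here. RPKM scales reads by transcript length and library size, so levels of different genes are set side by side per length. The symbol pattern for Rab3 also took 9 genes from Rab30 to Rab39b, which are not known as release genes, so 71 members are left without them. Several syntaxins, Vamp and Rab genes among these 71 serve the Golgi, endosomes or other membranes of every cell, and Snap91 encodes AP180, a clathrin assembly protein and no SNARE. The 11 matching genes under 1 RPKM were Syt2, Syt8, Syt15, Stx11, Stx19, Stxbp3a, Stxbp3b, Cplx4, Rab32, Rab38 and Rab39. Just inside the minimum lay Vamp5, Stxbp4 and Unc13c, with means of 1.21, 1.24 and 1.52 RPKM, and just outside it lay Rab32, Syt2 and Stx11, with means of 0.727, 0.598 and 0.328 RPKM.

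The libraries came from the olfactory bulbs of C57/BL6 adult mice, 6 to 8 weeks old or older, with 3 separate mice in each of 3 groups. The 30 min group was killed directly after 30 min in a cocktail of odorants. The 120 min group had the same 30 min of odor and then 90 min without it, in clean air. The clean air group was housed with an activated carbon filter and met no odor cocktail. No transgene or mutation is named in the labels for any group. Reads were of polyadenylated RNA, and the study asks by its title which transcripts respond to natural neuronal activity in the living animal.

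At a synapse, vesicles filled with transmitter dock at the active zone, are primed by Unc13 and Rims proteins, and fuse when calcium binds synaptotagmin. Fusion is driven by the SNARE complex, in which Vamp on the vesicle pairs with syntaxin and Snap25 on the plasma membrane, and Nsf pulls the complex apart afterwards. In the olfactory bulb, release occurs from the axons of sensory neurons in the glomeruli and also from the dendrites of mitral, tufted and granule cells. Messenger RNA lies mostly in cell bodies, so proteins of axon terminals that reach the bulb from elsewhere are largely made from transcripts outside it.

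Depth was 7.16 to 29.9 megareads per library, as recovered from the spacing of the deposited values, and 3 reads on a transcript of 1 kb corresponded to 0.1 to 0.419 RPKM. Log2 values correlated between libraries with Pearson r of 0.932 to 0.977, taken across genes, which are not independent replicates. The exposure was visible in the immediate-early gene Fos, at 131 to 171 RPKM at 30 min, against 4.04 to 12.1 RPKM in clean air. At 120 min Fos had 17.2 to 25.01 RPKM, still above clean air. Egr1, at 294 to 320 RPKM, and Arc, at 247 to 336 RPKM, also lay above clean air at 30 min. At 120 min Egr1 had 56.5 to 62.7 RPKM, within the 21.2 to 67.5 RPKM of clean air. Arc then had 34.8 to 43.3 RPKM, overlapping the 15.1 to 39.99 RPKM of clean air. Of 8 mitral and tufted cell marker symbols looked for, Cdhr1 and Pcdh21 name the same gene, and 7 genes were tested. Their summed level was 1032 to 1195 RPKM at 30 min, 1151 to 1229 RPKM at 120 min and 1047 to 1441 RPKM in clean air. Of 4 markers of frontal cortex excitatory neurons found, 1 was tested, and it lay at 1.25 to 1.99 RPKM in the 9 libraries. In whole bulb RNA, fewer cells of a type and less RNA per cell cannot be told apart.

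The immediate-early genes Fos and Egr1 encode factors that bind known DNA motifs, so the promoters of the members were searched for those motifs. The cAMP response element and a part of the RE1 element were searched for as well. RefSeq promoters of the build GRCm38.p6 were used, each as the 250 bases before a gene's start, and 62 member symbols matched with 80 promoters among 32851 in the table. Both strands were searched, and no match overlapped another. The cAMP response element TGACGTCA occurred in 1.55% of all promoters and among the members in Syn1. The AP-1 motif TGANTCA, bound by Fos with its partners, occurred in 6.75% of all promoters and among the members in Rab34. The EGR motif GCGTGGGCG occurred in 0.536% of all promoters and among the members in Unc13a. The left part of the RE1 element, TTCAGCACC, which the neuronal repressor REST recognises as part of a longer site, occurred in 0.301% of all promoters and among the members in Syn1. The promoters below are those of Syn1, with both a cAMP response element and an RE1 part, of Unc13a, with the EGR motif read on the opposite strand, and of Pclo, the member with the widest difference at 120 min and no match. Capitals mark the matches, and sequences run 5′ to 3′ in the direction of transcription. They lie at chrX:20920919-20921168 on the minus strand, chr8:71671758-71672007 on the minus strand and chr5:14514668-14514917 on the plus strand.
Syn1: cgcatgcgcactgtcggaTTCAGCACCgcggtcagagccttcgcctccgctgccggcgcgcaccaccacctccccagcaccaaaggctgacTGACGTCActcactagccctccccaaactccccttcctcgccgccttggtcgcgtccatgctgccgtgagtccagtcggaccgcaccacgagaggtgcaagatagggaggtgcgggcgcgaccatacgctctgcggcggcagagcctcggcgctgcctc
Unc13a: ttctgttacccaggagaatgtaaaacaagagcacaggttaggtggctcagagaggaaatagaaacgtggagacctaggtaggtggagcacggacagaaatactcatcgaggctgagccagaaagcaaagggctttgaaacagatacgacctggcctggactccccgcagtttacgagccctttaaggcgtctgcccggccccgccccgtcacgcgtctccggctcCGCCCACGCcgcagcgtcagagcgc
Pclo: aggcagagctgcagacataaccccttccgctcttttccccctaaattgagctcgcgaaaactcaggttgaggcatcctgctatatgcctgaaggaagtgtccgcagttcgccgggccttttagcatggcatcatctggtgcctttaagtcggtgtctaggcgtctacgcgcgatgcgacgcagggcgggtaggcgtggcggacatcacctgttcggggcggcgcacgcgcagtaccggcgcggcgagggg
In Syn1 the RE1 part lay 232 to 224 bases and the cAMP response element 159 to 152 bases before the start, and in Unc13a the EGR match lay 25 to 17 bases before it. A match describes the letters and does not show binding.

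In clean air the members were more abundant than most genes of the bulb. Their median level was 23.4 RPKM, against 9.65 RPKM over the 12780 genes tested. At least 100 RPKM was reached by 15 members, or 18.8%, against 4.7% of all genes tested, and under 10 RPKM lay 28 members, or 35%, against 51.0%. These are descriptions of a group chosen by name, and no test was made of them. With each clean air mouse left out in turn, 9 or 10 of the 10 most abundant members stayed among the top 10. Every family of more than 1 member also kept its most abundant member. These means share mice with the full mean, so some agreement was given in advance.

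Among the vesicle proteins, Rab3a stood highest of all members. Rab3a, the small GTPase that marks synaptic vesicles for docking, averaged 751 ± 165 RPKM in clean air (SD, n = 3), rank 18 of the genes tested. Its relative Rab3b averaged 197 ± 122 RPKM and was the most variable abundant member, with 334, 155 and 101 RPKM in the 3 clean air mice. Rab3c had 10.7 ± 1.76 RPKM and Rab3d, a Rab3 of secretory cells, 2.36 ± 0.33 RPKM. Syp, the gene of the vesicle membrane protein synaptophysin, had 489 ± 15.5 RPKM in clean air, with a coefficient of variation of 3.2%. Syn1 and Syn2, the synapsins that hold vesicles in reserve, had 240 ± 35.9 and 118 ± 27.9 RPKM, and Syn3 had 6.93 ± 3.14 RPKM. Sv2a, a vesicle glycoprotein and the target of the drug levetiracetam, had 203 ± 61.4 RPKM, 10.2 to 13.8 times the level of Sv2b in the same mouse, and Sv2c had 8.13 ± 3.31 RPKM. In the same clean air mouse, Rab3a exceeded Rab3b by 1.68 to 8.16 times and Syn1 exceeded Syn2 by 1.56 to 2.87 times, so the gap between relatives was narrow in some mice.

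Among the calcium sensors, Syt1, the sensor of fast synchronous release, led at 232 ± 35.1 RPKM in clean air. It was followed by Syt11, a synaptotagmin that does not bind calcium, at 133 ± 21.4 RPKM and Syt7, a sensor of slow and asynchronous release, at 90.4 ± 24.4 RPKM. Syt5 had 75.8 ± 10.4 RPKM and Syt6 60.6 ± 17.9 RPKM, and the ranges of Syt5, Syt6 and Syt7 over the 3 mice overlapped. Syt2, a fast sensor abundant in hindbrain and spinal cord, lay under the minimum at 0.62 ± 0.295 RPKM. Syt10, which in mouse olfactory bulb neurons controls secretion of insulin-like growth factor, had 14.3 ± 2.25 RPKM.

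Of the SNARE genes, Vamp2, the vesicle SNARE of synapses, had 483 ± 109 RPKM in clean air. Vamp1, its close relative, is listed under the name mVAMP-1 and so falls outside the symbol rule, and it had 17.6 ± 3.53 RPKM there. Vamp2 was 16.8 to 37.1 times as abundant as Vamp1 in the 3 clean air mice. Snap25, the plasma membrane SNARE of neurons, had 418 ± 59.2 RPKM, against 3.58 ± 2.91 RPKM for its widely expressed relative Snap23. Stx1a, a plasma membrane SNARE of synaptic release, had 40.9 ± 6.41 RPKM. Syntaxins that serve Golgi, endosomal and other membranes lay between 4.77 and 39.4 RPKM.

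Among the proteins that act on SNAREs, Cplx1, the complexin that clamps and promotes fusion, came next to Rab3a among all members, at 587 ± 26.5 RPKM. Cplx1 exceeded Cplx2 by 6.90 to 7.64 times in the same mouse in clean air. Nsf had 144 ± 29.1 RPKM. Unc13a, the gene of the priming factor Munc13-1, had 49.3 ± 13.7 RPKM under the identifier ENSMUSG00000034799. A further identifier, ENSMUSG00000074245, also carries the symbol Unc13a and had 35.2 ± 13.7 RPKM. The sources used here do not say whether reads were divided between these identifiers, so the level of Unc13a is uncertain.

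The active zone scaffolds lay below the leading vesicle genes per length. Rims4 and Rims3, short Rims proteins, had 41.4 ± 18.2 and 40.3 ± 19.5 RPKM in clean air, and the longer Rims2 and Rims1 had 23.3 ± 2.85 and 9.73 ± 3.01 RPKM. Bsn, the gene of bassoon, had 29.4 ± 9.81 RPKM and Pclo, the gene of piccolo, 3.997 ± 1.65 RPKM. Bassoon and piccolo are giant proteins of the cytomatrix where vesicles dock. The longest annotated transcripts were 15938 nt for Bsn and 20084 nt for Pclo.

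**Figure D1:**
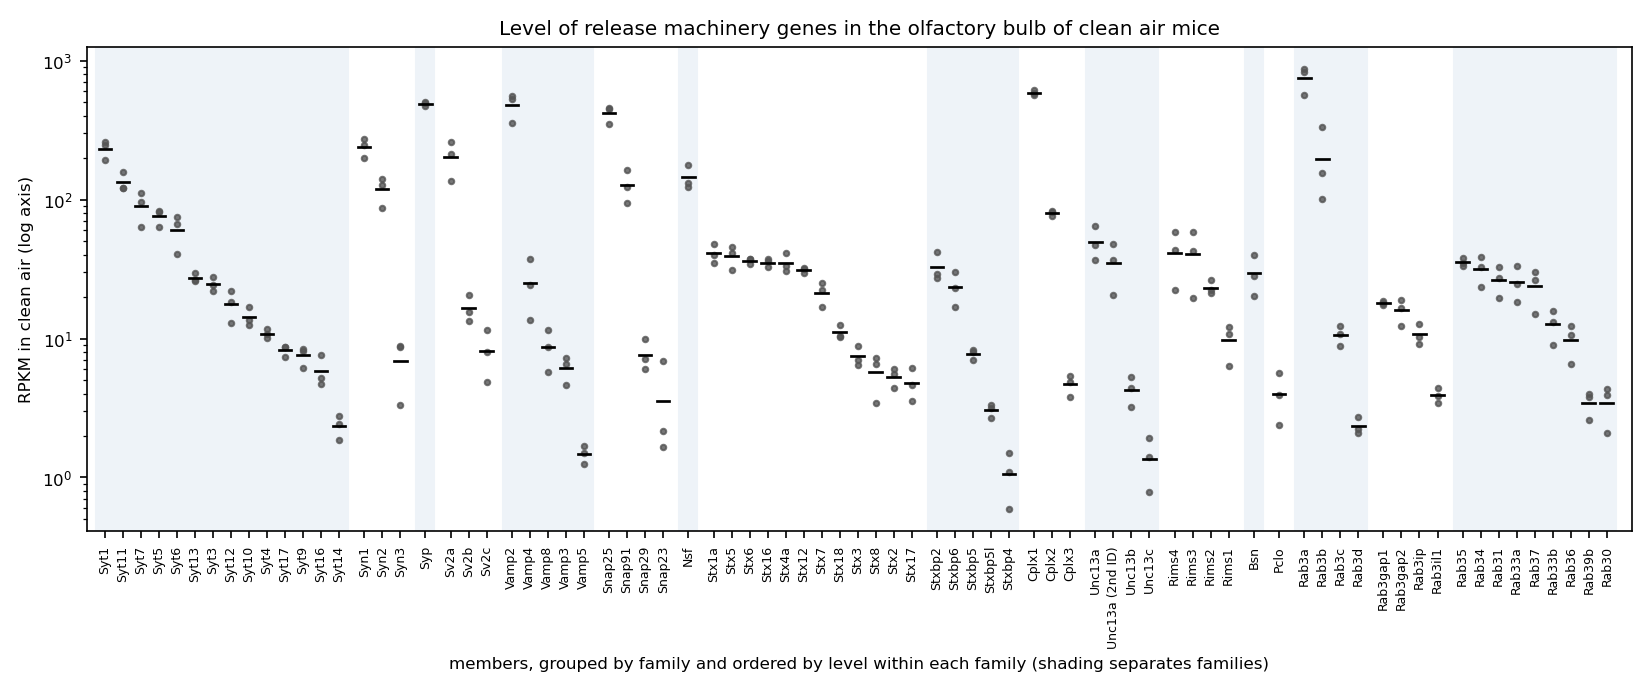
RPKM of members in the 3 clean air mice (points) with the mean (bar), on a log axis, grouped by family. Rab3a stands highest at 751 RPKM, and Vamp2 at 483 RPKM and Cplx1 at 587 RPKM stand above their relatives.

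No member passed the test after odor. The test was limma on log2(RPKM + 0.5) over all genes tested, two-sided, with Benjamini-Hochberg adjustment, and a gene was called at an adjusted p under 0.05. At 30 min against clean air, 0 of 80 members were called, against 18 of all genes tested, or 0.141%. At 120 min against clean air, 0 of 80 members were called, against 11 of all genes, or 0.0861%. Between 120 min and 30 min, 0 of 80 members were called, against 10 of all genes, or 0.0782%. The lowest adjusted p of any member was 0.818 at 30 min, 0.310 at 120 min and 0.999 between the odor times. At an unadjusted p under 0.05 stood 6 members at 30 min, or 7.5%, against 5.92% of all genes. At 120 min stood 8 members, or 10%, against 9.57% of all genes, and between the odor times stood 0 members, against 3.36%. All these shares of members lie near those of all genes, apart from the last, where no member stood.

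The differences that these mice could show were limited in size. The median standard error of a member's log2 difference was 0.211. The fit had no term for the mouse number in the sample titles, so spread between numbers is part of every standard error. The 95% interval lay wholly between -1 and 1 on the log2 scale for 72 of 80 members at 30 min, 67 at 120 min and 74 between the odor times. Rab3a differed by 0.01 ± 0.26 (log2, SE) at 30 min and by -0.09 ± 0.26 at 120 min. Snap25 differed by 0.12 ± 0.19 at 30 min and by 0.05 ± 0.19 at 120 min. Cplx1 had 567, 666 and 660 RPKM at 30 min and 617, 658 and 726 RPKM at 120 min, against 586, 561 and 614 RPKM in clean air. Its difference was 0.10 ± 0.16 at 30 min and 0.18 ± 0.16 at 120 min. The 95% intervals of these 3 abundant genes included 0 at both times, and only the 120 min values of Cplx1 lay wholly above clean air.

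The members lay on average slightly above clean air in both odor groups. At 30 min, 58 of 80 members had a higher mean log2 value than in clean air, with a median difference of 0.12, against 61.8% of all genes and a median of 0.08. At 120 min, 54 of 80 were higher, with a median of 0.15, against 53.9% of all genes and a median of 0.03. Without the genes from Rab30 to Rab39b the medians were 0.12 and 0.16. The 30 min median was 0.038 with each library centred on its own median, and with the trend on transcript length removed the medians were 0.032 at 30 min and 0.081 at 120 min. Between 120 min and 30 min, 42 of 80 members were higher, with a median of 0.01, against 43.7% of all genes and a median of -0.03. The 2 comparisons with clean air share the same 3 control mice, so they are not independent of each other.

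**Figure D2:**
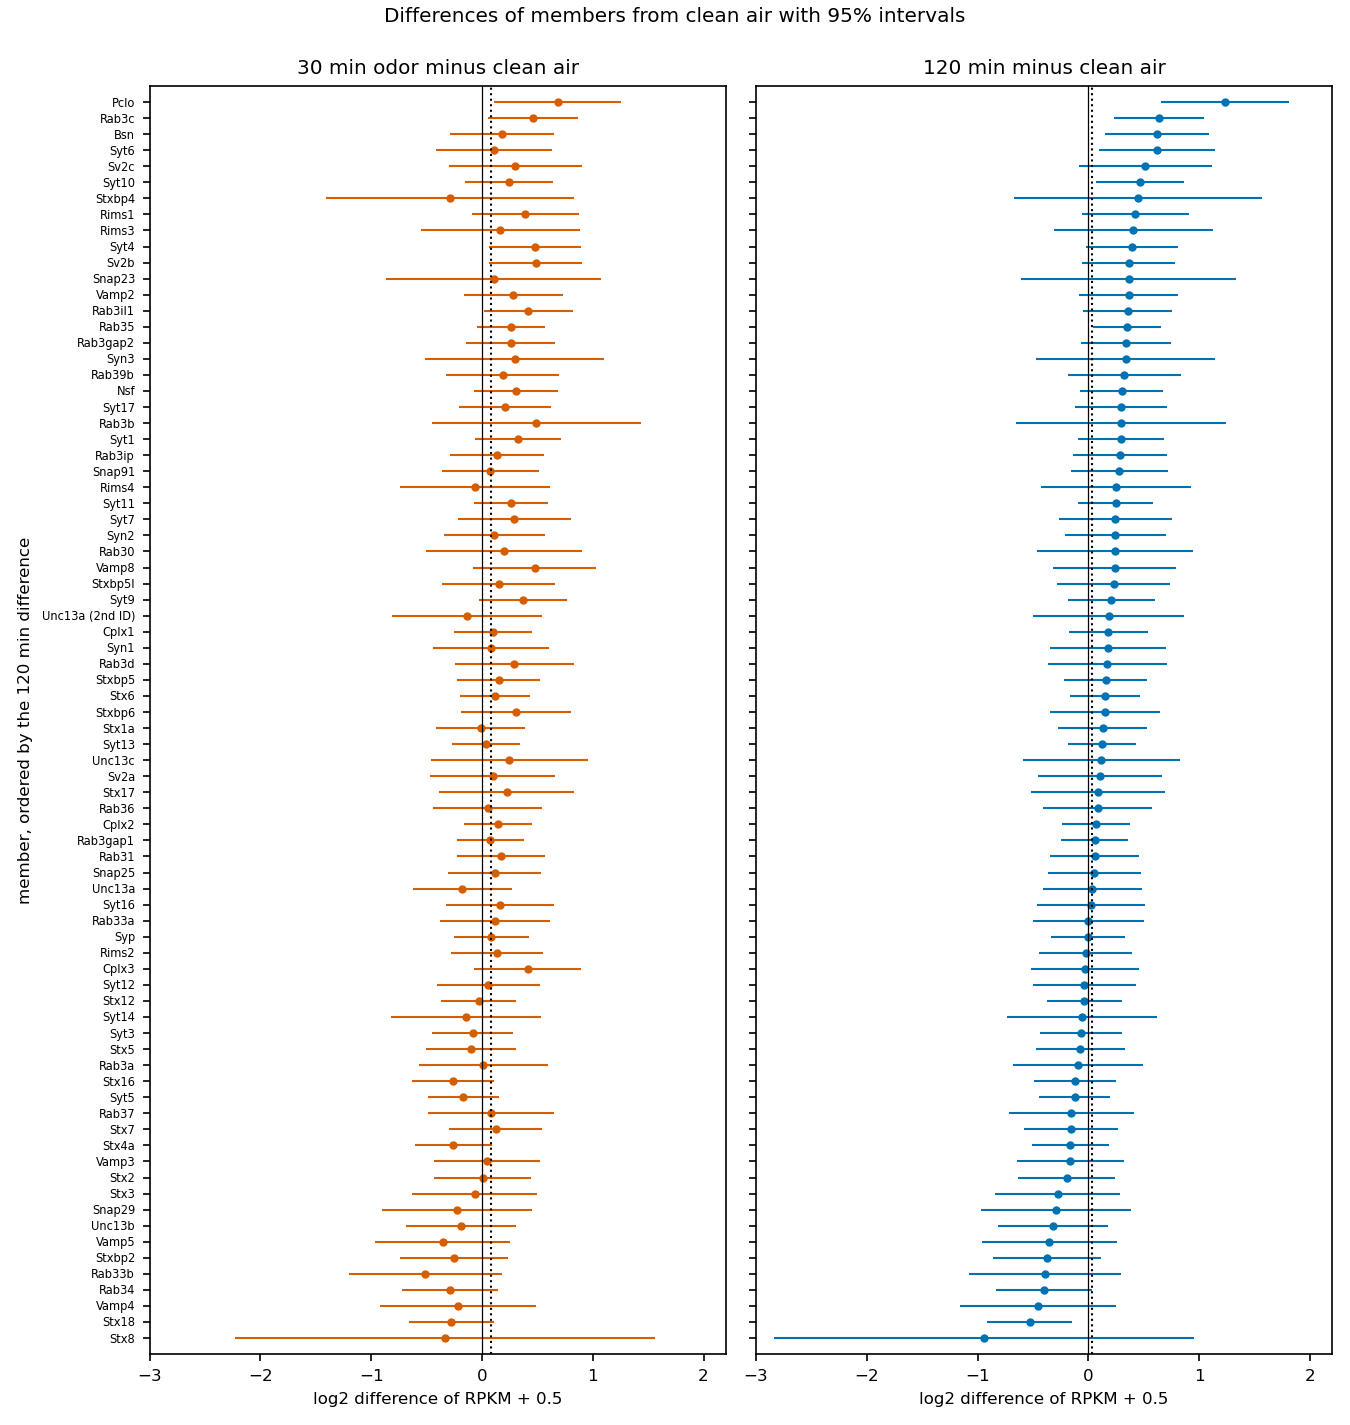
Log2 difference (RPKM + 0.5) of members at 30 min (left) and at 120 min (right) from clean air, with 95% intervals from limma, ordered by the 120 min value. The dotted line marks the median of all genes tested (0.08 left, 0.03 right), and Pclo lies farthest to the right at 120 min, at 1.23.

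At 120 min the widest difference among the members was in the active zone gene Pclo. Pclo had 8.15, 10.8 and 10.04 RPKM in the 120 min mice, against 3.91, 2.39 and 5.69 RPKM in the clean air mice. All 3 mice at 120 min lay above all 3 in clean air, and clean air mouse 2 was the lowest of the 9 libraries. The difference was 1.23 ± 0.26 on the log2 scale (95% interval 0.66 to 1.81), a 2.35-fold difference of RPKM + 0.5, and it missed the threshold with an adjusted p of 0.310 (limma, Benjamini-Hochberg). At 30 min Pclo had 5.87, 7.20 and 6.17 RPKM, also above each clean air mouse, and its difference was 0.68 ± 0.26, or 0.40 without clean air mouse 2. Leaving out 1 library at a time moved the 120 min value between 0.95, without clean air mouse 2, and 1.5. Over all alternatives, the adjusted p of Pclo at 120 min ran from 0.091 to 0.703 (limma).

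Bsn, the partner of Pclo at the active zone, had 41.6, 45.2 and 45.2 RPKM at 120 min, against 28.2, 20.3 and 39.8 RPKM in clean air. The 120 min mice lay above the clean air mice without overlap, at 0.62 ± 0.21 on the log2 scale (adjusted p = 0.391, limma). At 30 min the values of 32.0, 31.1 and 33.6 RPKM lay inside the clean air range, at 0.18 ± 0.21. Without clean air mouse 2 the 120 min difference of Bsn was 0.39. Rims1, a further active zone scaffold that binds Rab3, had 12.2, 13.4 and 12.7 RPKM at 120 min, against 10.9, 6.32 and 12.02 RPKM in clean air, where mouse 2 was again the lowest. Its difference was 0.42 ± 0.22.

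Of the vesicle and plasma membrane genes, Rab3c had 16.1, 19.1 and 15.4 RPKM at 120 min, against 10.8, 8.87 and 12.4 RPKM in clean air. Its groups did not overlap, and the difference was 0.64 ± 0.18 (adjusted p = 0.342, limma). Clean air mouse 2 was the lowest of the 9 libraries, and leaving out 1 library moved the difference between 0.518 and 0.748. Stx1a differed by 0.13 ± 0.18 at 120 min and by -0.01 ± 0.18 at 30 min.

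Syt6, a synaptotagmin, had 96.4, 78.9 and 96.6 RPKM at 120 min and 78.3, 52.3 and 61.4 RPKM at 30 min, against 67.0, 40.4 and 74.3 RPKM in clean air. The 120 min mice lay above both other groups, while the 30 min mice overlapped with clean air. The difference was 0.62 ± 0.24 at 120 min from clean air and 0.51 ± 0.24 at 120 min from 30 min. Without clean air mouse 2 the first of these was 0.35. Syt10 had 18.5, 22.6 and 18.7 RPKM at 120 min, against 16.8, 12.5 and 13.7 RPKM in clean air, at 0.47 ± 0.18. Clean air mouse 2 was its lowest library. Neither gene passed the test.

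**Figure D3:**
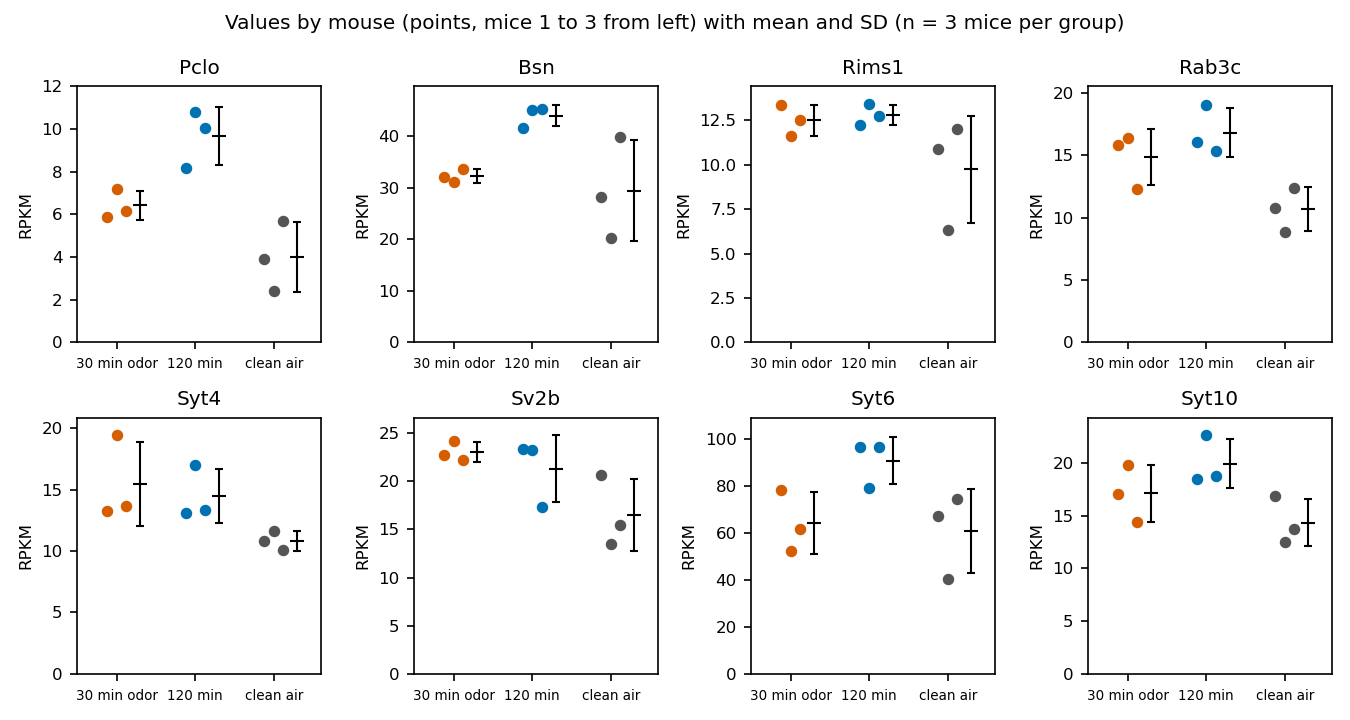
RPKM of 8 members in each mouse (points, mice 1 to 3 from the left) with the mean and SD (n = 3). Pclo and Bsn at 120 min lie above all clean air mice. Clean air mouse 2 (middle grey point) is the lowest of the 9 libraries for all genes shown except Syt4.

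In all, the 120 min mice lay wholly above the clean air mice for 12 of 80 members, or 15.0%, against 7.86% of all genes. They included Pclo, Rab3c, Bsn, Syt6, Syt10, Rims1, Syt4, Vamp2, Rab3il1, Rab35 and Cplx1. The members were more abundant than all genes, with 35% against 51.0% under 10 RPKM in clean air. The part of level, transcript length and clean air mouse 2 in this share was not tested. Wholly below lay 1 member, against 5.27% of all genes. That was Stx18, a SNARE of the endoplasmic reticulum, with 6.76, 7.42 and 8.35 RPKM at 120 min, against 10.3, 10.5 and 12.5 RPKM in clean air. Its difference was -0.53 ± 0.18 (adjusted p = 0.370, limma). Among the other low values at 120 min, Vamp4, a SNARE of the trans-Golgi and endosomes, differed by -0.45 ± 0.32, Rab34 by -0.40 ± 0.20 and Rab33b by -0.39 ± 0.31. Single libraries weighed on all 3. Vamp4 was at -0.12 and Rab34 at -0.24 without clean air mouse 2, and Vamp4 was at -0.83 without clean air mouse 1. Rab33b was at -0.05 without 120 min mouse 2 and at -0.21 without clean air mouse 3, but at -0.61 without 120 min mouse 1 or without clean air mouse 2.

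At 30 min the mice lay wholly above clean air for 9 of 80 members, against 7.29% of all genes, and wholly below for 1, against 4.08%. Those above included Pclo, Sv2b, Syt4, Rab3il1, Syt9, Syt1, Rab35 and Stx6, and the gene below was Stx16, a SNARE of the trans-Golgi. Sv2b had 22.8, 24.2 and 22.2 RPKM at 30 min, against 20.7, 13.5 and 15.5 RPKM in clean air, at 0.49 ± 0.19. Clean air mouse 2 was its lowest library, and leaving out 1 library moved the difference between 0.355 and 0.655. Syt4, a synaptotagmin known to be induced by depolarisation in a rat cell line, had 13.3, 19.4 and 13.7 RPKM at 30 min and 13.1, 17.0 and 13.3 RPKM at 120 min, against 10.8, 11.7 and 10.1 RPKM in clean air. Both odor groups lay above clean air, and the difference was 0.48 ± 0.19 at 30 min (adjusted p = 0.818, limma) and 0.39 ± 0.19 at 120 min. Syt1 had 260, 334 and 278 RPKM at 30 min, against 247, 258 and 192 RPKM in clean air, at 0.32 ± 0.18. Rab3b, with 232, 215 and 292 RPKM at 30 min, lay inside the wide clean air range, and its difference of 0.49 ± 0.43 was 0.96 without clean air mouse 1 and 0.10 without clean air mouse 3.

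Among the members with the lowest values at 30 min, Rab33b differed by -0.51 ± 0.31, Vamp5 by -0.35 ± 0.28 and Rab34 by -0.29 ± 0.20, each overlapping with clean air. Rab33b was at -0.33 without clean air mouse 3 and Vamp5 at -0.16 without 30 min mouse 3. Rab34 was at -0.13 without clean air mouse 2 and at -0.49 without clean air mouse 3. Stx8, an endosomal SNARE, had 3.44, 6.31 and 3.48 RPKM at 30 min, against 7.22, 3.41 and 6.59 RPKM in clean air, at -0.33 ± 0.86, or -0.64 to -0.15 leaving out 1 library. Stx8 is listed at 0 in 120 min mouse 3, beside 7.68 and 6.90 RPKM in the other 120 min mice. Its 120 min difference of -0.94 ± 0.86 from clean air turned to 0.38 without that mouse. Stxbp4 had 0.23, 2.58 and 0.35 RPKM at 30 min, against 0.59, 1.49 and 1.10 RPKM in clean air, and its difference of -0.29 ± 0.51 turned to 0.10 without 30 min mouse 1.

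Between 120 min and 30 min, the 120 min mice lay wholly above for 3 members, against 4.99% of all genes. They were Pclo at 0.55 ± 0.26, Syt6 at 0.51 ± 0.24 and Bsn at 0.44 ± 0.21. Wholly below lay 2 members, against 5.66% of all genes. Cplx3, a complexin of ribbon synapses, had 4.14, 4.44 and 5.07 RPKM at 120 min, against 5.14, 5.90 and 8.37 RPKM at 30 min, at -0.44 ± 0.22, or -0.26 without 30 min mouse 3. The other was Rab31 at -0.12 ± 0.18. Of the remaining members at the ends of this comparison, Stxbp4 differed by 0.74 ± 0.51, the further Unc13a identifier by 0.32 ± 0.31, Stx7 by -0.28 ± 0.19, Vamp8 by -0.24 ± 0.25 and Stx18 by -0.25 ± 0.18. Leaving out 1 library moved each of these 5 by over 1.5 times. Stxbp4 was at 0.35 without 30 min mouse 1, 1.39 without 30 min mouse 2 and 0.46 without 30 min mouse 3. The further Unc13a identifier was at 0.08 without 120 min mouse 3, 0.17 without 30 min mouse 2 and 0.50 without 120 min mouse 1. Stx7 was at -0.17 without 120 min mouse 3 and Stx18 at -0.14 without 30 min mouse 2, and Vamp8 was at -0.05 without 30 min mouse 1 and -0.36 without 30 min mouse 2.

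Transcript length moved with the groups. Over the 306 tested genes with a longest transcript above 10000 nt, the median log2 difference from clean air was 0.24 at 30 min and 0.33 at 120 min, against -0.02 and -0.11 over the genes of up to 1500 nt. Across the 79 members with an annotated length, the log2 difference correlated with log2 length at Pearson r = 0.27 at 30 min and r = 0.40 at 120 min, against 0.21 and 0.30 over all tested genes with a length. These correlations describe genes that share the same libraries. The 4 members above 10000 nt had a median difference of 0.001 at 30 min and 0.33 at 120 min, with 2 and 3 of them higher than clean air. At 120 min, 9 of 22 members of 1500 to 3000 nt were higher than clean air, and 10 of 11 members of 6000 to 10000 nt. Syt6 and Syt10, named for their high values at 120 min, have longest transcripts of 4416 and 1845 nt. The long transcripts were lowest in clean air mouse 2, at a median of -0.34 from each gene's mean, and the other 2 clean air mice had -0.10 and -0.15. The 30 min mice had 0.06, 0.15 and -0.01, and the 120 min mice had 0.15, 0.25 and 0.05. Clean air mouse 2 was also the lowest library for Pclo, Bsn, Rims1, Syt6, Rab3c, Sv2b and Syt10.

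With the length trend removed within each library, Pclo differed by 0.78 at 120 min and by 0.35 at 30 min, Bsn by 0.22 at 120 min and Rab3c by 0.39 at 120 min. Syt6, at 0.56 under the same correction at 120 min, moved less. Among the members above 10000 nt, Pclo and Bsn lay above clean air at 120 min, while Unc13a, with a transcript of 10255 nt, differed by 0.04 ± 0.20 and Unc13b, another priming factor, by -0.32 ± 0.22. The part of length in these differences beyond this correction was not tested.

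**Figure D4:**
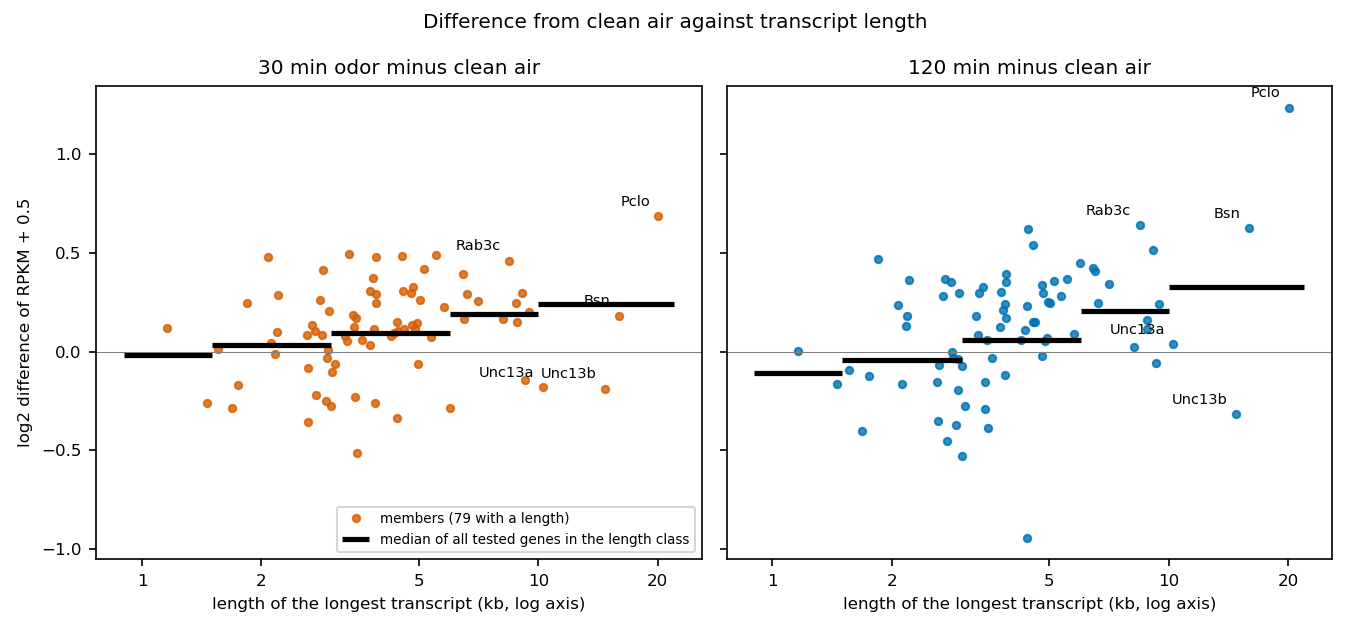
Log2 difference from clean air (RPKM + 0.5) of the 79 members with an annotated length against the length of the longest transcript (kb, log axis), at 30 min (left) and 120 min (right). Black bars give the median of all tested genes in each length class, from -0.11 in the shortest to 0.33 in the longest class at 120 min, and Pclo lies above the bar of its class in both panels.

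The sample titles number the mice 1 to 3 in each group. The codes in the sample descriptions number the same mice differently, as 1, 3 and 4 in both odor groups and as 1, 2 and 5 in clean air. The labels do not say what mice of the same number share. Recovered depth was 8.83, 9.83 and 10.5 megareads in the mice numbered 1 at 30 min, at 120 min and in clean air. In the same order it was 28.9, 24.1 and 22.15 megareads for those numbered 2 and 17.4, 7.16 and 29.9 for those numbered 3. The part of depth in values by mouse number was not tested. In a limma fit with mouse number as a further term, 0 of 80 members were called for mouse number, against 0.689% of all genes, and 19 of 80, or 23.8%, had an unadjusted p under 0.05, against 23.6% of all genes. That share of members is the background share. The genes given here were chosen after their values were seen and are described without a test. Rab3a had 530 to 562 RPKM over the mice numbered 1, 838 to 898 RPKM over those numbered 2 and 707 to 865 RPKM over those numbered 3. Syn1 likewise had 193 to 210 RPKM in the mice numbered 1, 271 to 350 RPKM in those numbered 2 and 249 to 267 RPKM in those numbered 3. Sv2a ran the other way, with 257 to 264, 137 to 180 and 200 to 213 RPKM. Rab3b, with 232 to 363, 133 to 215 and 101 to 292 RPKM, overlapped between the numbers.

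**Figure D5:**
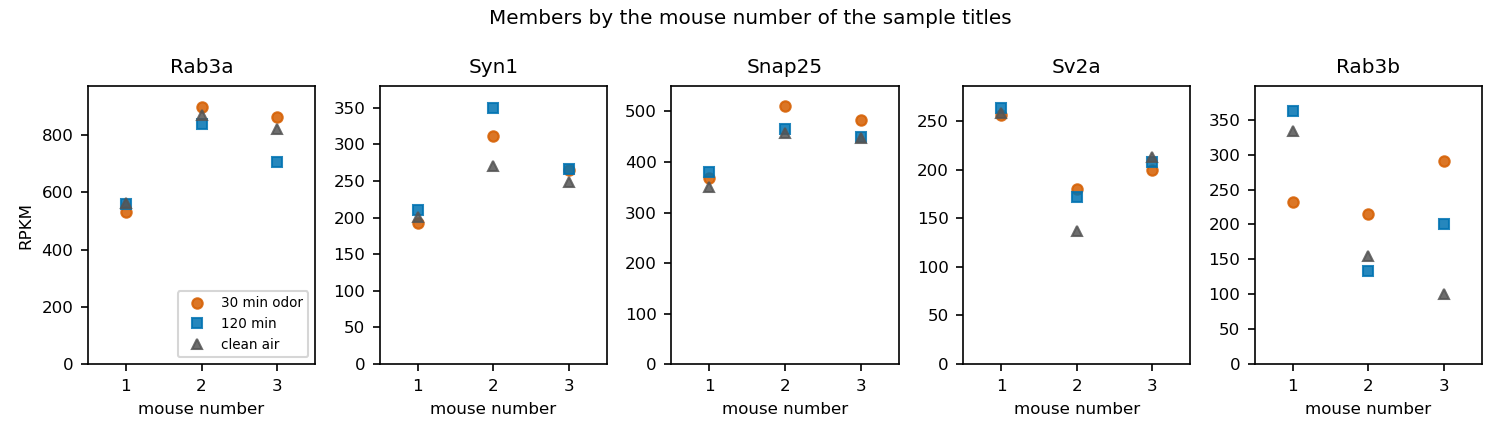
RPKM of 5 abundant members by the mouse number of the sample titles, with 30 min, 120 min and clean air mice as separate symbols. In Rab3a, Syn1 and Snap25 all mice numbered 1 lie below all others, and in Sv2a they lie above.

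Other genes of the release pathway, outside the symbol rule, gave the same count. Of 74 tested, none was called in any of the 3 comparisons by limma, against 0.141%, 0.0861% and 0.0782% of all genes. At an unadjusted p under 0.05 (limma) stood 5, 6 and 0 of them, against 5.92%, 9.57% and 3.36% of all genes. They covered vesicular transmitter transporters, the vesicular proton pump, other vesicle proteins, other active zone and priming proteins and endocytosis. At 30 min 51 of 74 were higher than clean air, with a median log2 difference of 0.14, against 61.8% and 0.08 over all genes. At 120 min 49 of 74 were higher, with a median of 0.13, against 53.9% and 0.03 over all genes. Slc17a7, the vesicular glutamate transporter of mitral and tufted cells, had 371 ± 36.7 RPKM at 30 min and 396 ± 55.2 RPKM at 120 min, against 410 ± 101 RPKM in clean air. Erc2, an active zone partner of Rims and Bsn, had 36.1 ± 4.92 RPKM at 30 min and 35.9 ± 3.88 RPKM at 120 min, against 25.5 ± 9.76 RPKM in clean air, at 0.54 ± 0.24 for each time. Dnm1, the dynamin that cuts vesicles free after fusion, had 497 ± 82.7 RPKM at 30 min and 532 ± 40.4 RPKM at 120 min, against 540 ± 62.7 RPKM in clean air. The pump genes, with Atp6v0c also counted under a further identifier, were higher in 10 of 12 at each time, with medians of 0.17 and 0.16.

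As a background, the markers of cell types were taken. Doc2g, Slc17a7, Slc18a2 and Synpr are among both these markers and the other release pathway genes above, so the lists are not separate. Of 64 tested markers of 13 cell types, none was called in any comparison by limma, against 0.141%, 0.0861% and 0.0782% of all genes. At an unadjusted p under 0.05 (limma) stood 7, 6 and 2 markers, against 5.92%, 9.57% and 3.36% of all genes. At 30 min 50 of 64 were higher than clean air, with a median of 0.17, against 61.8% and 0.08 over all genes. At 120 min 44 of 64 were higher, with a median of 0.13, against 53.9% and 0.03 over all genes. The mitral and tufted cell markers had a median of 0.03 at 30 min and 0.41 at 120 min. At 120 min 5 of 7 were higher than clean air, and 3 had an unadjusted p under 0.05 (limma), against 9.57% of all genes. Their summed levels given above overlapped between the groups, but the most abundant markers weigh most in a sum. These were Doc2g and Slc17a7, at -0.27 and -0.03 at 120 min, while Reln was at 0.90 and Tbx21 at 0.51. The 5 interneuron markers had a median of 0.16 at 30 min and 0.09 at 120 min. The red blood cell markers had a median of 1.051 at 30 min, with 3 of 3 higher and 2 at an unadjusted p under 0.05, and 0.21 at 120 min. Their summed level was 175 to 209.99 RPKM at 30 min and 52.3 to 197 RPKM at 120 min, against 42.9 to 162 RPKM in clean air, without overlap between 30 min and clean air. The endothelial and mural cell markers had medians of 0.34 and 0.08, the astrocyte markers of 0.29 and 0.21, and the olfactory sensory neuron markers of 0.27 and -0.04, at 30 min and at 120 min. The part of these markers in the values of the members was not tested.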

How the data were processed

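Per the labels' protocols, RNA from each bulb was extracted with Trizol, treated with DNase and selected for poly(A). Bowtie and the genome build mm9 were used, per the submitters' processing notes. Versions, gene models, counting and strandedness are not stated there. The authors deposited RPKM values for 27497 genes with 2 decimals, and these were used without further scaling. Members and gene lists were chosen with earlier results of these data known.

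Depth was recovered from values of annotated RNAs under 200 nt, whose RPKM are whole multiples of the value of 1 read. With a length 34 nt shorter than annotated, 80.8% to 95.1% of multiples were whole within 0.05, against 20.5% to 37.3% with the full length. No source used here says whether reads or pairs were counted.

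The 12780 genes that averaged 1 RPKM or more were fitted together with limma 3.58.1 in R 4.3.3 (lmFit, eBayes with trend) on log2(RPKM + 0.5), over 9 libraries in 3 groups with 6 residual degrees of freedom. Errors of log2 differences are standard errors and errors of RPKM are SD over 3 mice. Transcript lengths came from GENCODE M21 by identifier, and promoters from RefSeq. Genes named are the most abundant member of each family, the 5 highest and 5 lowest members of each comparison, those on either side of the minimum level, and relatives set beside each other. Members whose groups did not overlap, and a few from other lists, were named after their values were seen.

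The replicate numbers of the titles, which differ from the codes in the descriptions, were checked for pairing. Deviations of same-numbered mice from their group means correlated at 0.301, 0.383 and 0.147 between 30 min and clean air, each above 0.1. The limma fit of the 3 groups still had no term for mouse number, so its standard errors, intervals and adjusted p are unpaired. Pairing entered only through the replicate block among the alternatives and the fit for mouse number. Alternatives changed the pseudocount, filter, scaling, samples, variance model, replicate block and transcript length, and left out each library. Individual results of a few members are not reported here and are not drawn in the plots that name genes, though all counts and medians include them.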

Additional observations from a re-analysis of the deposited data

How the results depend on the processing

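No member was called under any alternative run, in any of the 3 comparisons, and none of the 74 other release pathway genes. A gene was held to its direction and its side of the threshold, a count to within 1.5 times, and the members' median to within the SD of that median between replicates. By these limits 858 recomputed values stayed, 19 moved and 3 reversed in a gene. The genes among them were the 5 highest and 5 lowest members of each comparison in these same data, and none was called. Agreement in direction and call was therefore partly built in. The size of single genes varied more, as for Rab33b at 120 min, at -0.61 to -0.05 leaving out 1 library. The median between 120 min and 30 min lay near 0, at -0.011 to 0.045, and so on either side of it. Stx8 turned to 0.71 between 120 min and 30 min and to 0.38 between 120 min and clean air without 120 min mouse 3, where it is listed at 0, and leaving out other libraries took these values to -1.30 and -1.64. Stxbp4 turned to 0.10 between 30 min and clean air without 30 min mouse 1, and its lowest value was -0.94. The median log2 difference of the members at 30 min was 0.038 with median centring, 0.072 with quantile normalization and 0.032 with the length correction, alone or with the replicate block, and 0.091 to 0.172 leaving out 1 library. At 120 min it was 0.081 with the length correction, alone or with the block, and 0.091 to 0.196 leaving out 1 library. The genes called at 120 min against clean air, among all tested, numbered 7 with a minimum mean of 5 RPKM, 7 with the length correction and 2 with only these groups in the fit. Leaving out 1 library gave 0 to 11, namely 0 in the absence of 120 min mouse 3 or of clean air mouse 2, 3 in that of 120 min mouse 1 or of 120 min mouse 2, and 6 in that of clean air mouse 1. The length correction, alone and with the block, and the setting without Rab30 to Rab39b were chosen after seeing the data. Causes other than the construction of each alternative were not tested.

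With mouse number as a replicate block, 0 members were called in each comparison, and the genes called among all tested were 22 at 30 min, 11 at 120 min and 10 between the odor times, so the pairing changed no call of a member. Same-numbered mice correlated at 0.223, 0.391 and 0.09 between 120 min and clean air and at 0.319, 0.444 and 0.081 between 120 min and 30 min. Each library correlated best with its own number in every other group, a hint from the data and not from the design. With 3 mice a group and a median standard error of 0.211, log2 differences under 1 were mostly not detectable at this depth and spread. A difference above 1 could also stay uncalled, as for Pclo at 120 min from clean air, at 1.23 ± 0.26 (adjusted p = 0.310, limma).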
